A study of Populus tremula x Populus alba with 7 samples.

Results

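The ChIP-seq peak lists of PtrBLH and PtrCORONA, the homeodomain TFs of this series, were set against each other. The PtrBLH list holds 1023 peaks and the PtrCORONA list 1159 peaks, which together are 2182 of the 9442 peaks in the 6 TF lists. These are counts of the deposited lists, and the study itself reports fewer binding sites for each of these TFs. A PtrBLH peak and a PtrCORONA peak were paired where they shared 1 bp or more, and a peak with no such partner was called unpaired. PtrBLH-GFP and PtrCORONA-GFP were each expressed from the CaMV35S promoter after Agrobacterium was infiltrated into leaves of hybrid poplar (Populus tremula × alba), which were harvested 7 days later. The leaf was cross-linked with 1% formaldehyde for 15 min, and a GFP antibody was used for both fusions, with leaf chromatin taken without the antibody (input) as the shared control. The fusions were made in leaf from a viral promoter, so the lists describe introduced protein in leaf and not the native TFs in wood. Each TF has a single library, so the spread between libraries is unknown, the TFs were not tested against each other, and all differences given here are between these 2 lists.

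PtrBLH is a BEL1-like homeodomain protein. In Arabidopsis such proteins belong to the TALE class and bind DNA together with KNOX homeodomain partners, and members of both families act in meristems and in stem and wall development. PtrCORONA is a class III HD-ZIP protein, with a homeodomain followed by a leucine zipper through which these proteins dimerize on DNA. In Arabidopsis, CORONA and its relatives act in meristems, in organ polarity and in the vascular system. The study tested both as regulators of PtrPARVUS2, a putative gene of hemicellulose synthesis. In a peak list, the summit is the position of highest signal, the fold enrichment is the signal there relative to the control, and the −log10 q grows with the strength of the call. Positions are those of the lists, counted from 1. No genome sequence or gene annotation of this build was used here, so peaks are given without gene features and no sequence is shown.

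Most peaks of either homeodomain TF had a partner in the list of the other. A PtrCORONA peak overlapped 738 PtrBLH peaks (72.1% of the list, with an exact 95% binomial interval of 69.3 to 74.9%), and 285 had none. A PtrBLH peak overlapped 733 PtrCORONA peaks (63.2%, 60.4 to 66.0%), and 426 had none. The intervals cover counting error only. Pairing was nearly always single: 728 of the pairs joined 1 peak of each list, and the other 10 came from 5 places where 1 PtrCORONA peak spanned 2 PtrBLH peaks. No PtrBLH peak spanned 2 PtrCORONA peaks. No pair sat at the 1 bp limit. The shortest overlaps that made a pair were 106 bp, 117 bp and 123 bp. Among peaks with no partner, the closest lay 281 bp, 374 bp and 395 bp from a peak of the other list. With a gap of up to 200 bp allowed, there were 745 pairs and the paired shares did not change. The added pairs thus joined peaks that already had a partner.

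The summits of a pair lay close together. The absolute distance between the PtrBLH and the PtrCORONA summit had a median of 10 bp over the 738 pairs (order-statistic 95% interval 9 to 12 bp), and the middle of the distribution ran from 4 bp (25th percentile) to 28 bp (75th percentile). In 374 pairs (50.7%) the summits were within 10 bp, in 618 (83.7%) within 50 bp, and in 678 (91.9%) within 100 bp. The same base was the summit in both lists in 34 pairs. Over all pairs the PtrBLH summit lay at the higher coordinate in 359 and at the lower one in 345, with a median signed offset of 0 bp. In the weaker pairs the higher coordinate was the more frequent one, in 109 against 74 of the 185 weakest pairs by mean within-list rank (median 7 bp) and in 104 against 72 of the 178 pairs with a peak in 1 other list (median 12 bp). Those groups have pairs in common, so their counts are not separate results. These distances are far below the median peak widths of 507 bp (PtrBLH) and 533 bp (PtrCORONA) in the pairs.

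**Figure D1:**
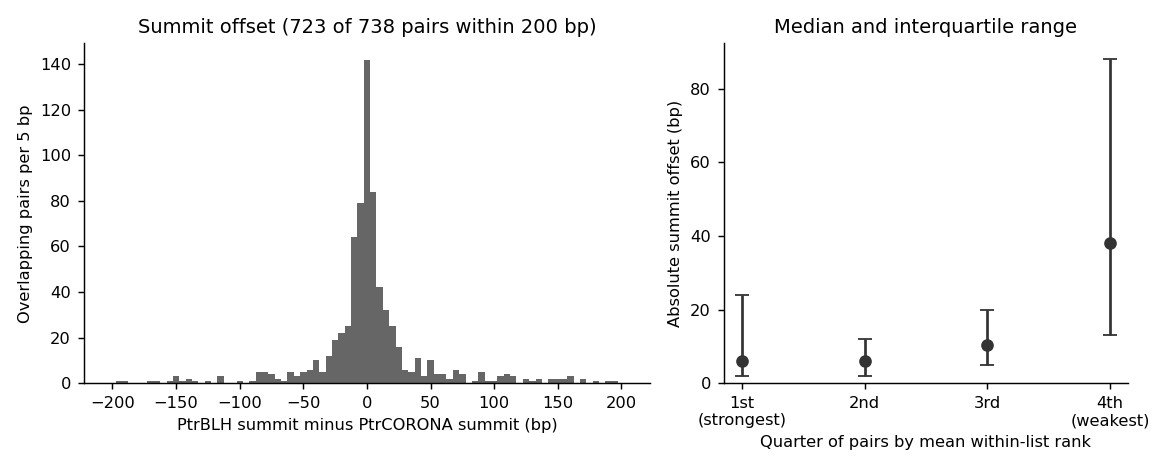
Left, histogram of the PtrBLH summit minus the PtrCORONA summit in bp for the 723 of 738 pairs within 200 bp; right, median absolute offset (points) with the 25th and 75th percentiles (bars) in 4 equal groups of pairs ordered by mean within-list rank. The histogram is centred on 0, and the median offset is 6 bp in both stronger groups, 10.5 bp in the next and 38 bp in the weakest.

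Summit agreement followed the strength of the pair. Pairs were ordered by the mean of their 2 within-list ranks by −log10 q and cut into 4 groups of 184 or 185. The median offset was 6 bp in the strongest group, 6 bp in the next, 10.5 bp in the third group and 38 bp in the weakest, where the 90th percentile reached 159 bp. Narrow pairs, with a mean width under 400 bp, had a median offset of 32 bp (106 pairs), against 9 bp at 400 to 600 bp (427 pairs), 7 bp at 600 to 1000 bp (156 pairs) and 10 bp above that (49 pairs). Narrow peaks were also the weak ones, with a median −log10 q of 7.89 (PtrBLH) and 8.82 (PtrCORONA), so width and strength cannot be told apart here. Summits over 500 bp apart occurred in 6 pairs, of which 4 belonged to the places with 2 PtrBLH peaks under 1 PtrCORONA peak. The remaining such pairs were on chromosome 15. In one, the PtrBLH peak ran from 6328134 to 6330848 and the PtrCORONA peak from 6328125 to 6330851, with summits 1396 bp apart. The other covered 4291777 to 4292822 (PtrBLH) and 4291757 to 4292843 (PtrCORONA), with summits 554 bp apart. Both pairs thus shared their edges to within 21 bp while their highest points differed.

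The PtrBLH peak of a pair was usually the narrower one, by a small amount. The PtrBLH width divided by the PtrCORONA width had a median of 0.963 (0.960 to 0.968), and PtrBLH was narrower in 637 of 738 pairs (86.3%). Among the 728 single pairs the PtrBLH peak lay wholly inside the PtrCORONA peak in 551 (75.7%), while the reverse held in 41 (5.63%) and the edges were staggered in 136. The trimming was alike on both sides, with a median of 10 bp at the start and 10 bp at the end. No pair had identical edges. The narrowest peak of a list was 284 bp for PtrBLH and 288 bp for PtrCORONA. At places with a peak in all 4 other lists, PtrBLH was narrower in 98.5% of 520 pairs, against 57.3% of the 178 pairs with a peak in 1 other list. The mapped reads of each library are unknown here, so width was not set against depth.

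The PtrBLH and PtrCORONA peaks of a pair held similar places in their lists. Across the 738 pairs, the Spearman correlation was 0.951 for −log10 q, 0.826 for fold enrichment and 0.807 for width. These are descriptions across sites, which share the input library, the mapping and the local background, and carry no p-value. Expressed as a percent of each list, the ranks differed by a median of 4.40 points, and by 10 points or less in 563 pairs (76.3%). Order was held mainly at the strong end. In the 4 groups of pairs by mean within-list rank, strongest first, the Spearman correlation of −log10 q was 0.939, 0.802, 0.492 and 0.0355. It was 0.970 in the 520 pairs with a peak in all 4 other lists and 0.433 in the 178 pairs with a peak in 1 other list. The groups cover unequal ranges of −log10 q, which also affects a correlation, so these values are not on equal terms. PtrBLH ranked lower, in percent of its list, in 554 pairs and PtrCORONA in 184. A percent rank also depends on how many weaker peaks a list holds below a peak, and the PtrCORONA list holds more of them.

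**Figure D2:**
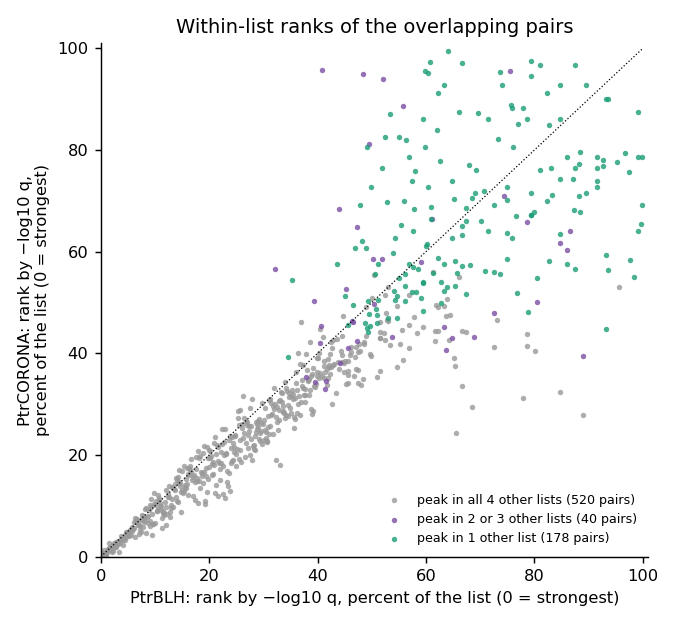
Each point is 1 of 738 overlapping pairs, placed by its rank in the PtrBLH list (horizontal) and in the PtrCORONA list (vertical), both by −log10 q as a percent of the list with 0 the strongest; colours give how many of the 4 other lists also have a peak, and the dotted line marks equal ranks. Points lie close to the line at the strong end and spread beyond about the middle of the lists, where the 178 pairs with 1 other list are found.

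The pairs named first here are those with the best mean within-list rank, a choice that favours peaks strong for both TFs. On scaffold_555 the PtrBLH peak (8970 to 10240) had a −log10 q of 466.1, rank 1 of its list, and the PtrCORONA peak (8954 to 10244) had 398.6, rank 5, with summits 4 bp apart. On chromosome 3, peaks from 19528572 to 19529511 (PtrBLH) and 19528562 to 19529522 (PtrCORONA) had −log10 q values of 453.9 and 403.8 and summits 9 bp apart. A broad pair on chromosome 2, from 18359187 to 18363679 for PtrBLH and 18359116 to 18363722 for PtrCORONA, ranked 3 in each list and had its summit at the same base. The PtrCORONA list was led by a peak on chromosome 5 (24527724 to 24528909, −log10 q 449.8), whose PtrBLH partner ranked 5 in its own list (428.1). In 93 pairs both members were among the first 100 peaks of their lists. Of these first 100 peaks, 100 in the PtrBLH list and 99 in the PtrCORONA list had a partner anywhere in the other list.

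A few pairs ranked far apart. The largest gap in favour of PtrBLH was on chromosome 11, where the PtrBLH peak from 7197514 to 7198279 had a −log10 q of 31.9 and the PtrCORONA peak from 7197542 to 7198016 had 4.34, at percent ranks of 40.9 and 95.8. Their summits were 2 bp apart, and the fold enrichments were low in both lists, 1.82 and 1.27. The next such pairs, on chromosomes 13 (PtrBLH from 14866899 to 14869685) and 3 (9387747 to 9388262), had PtrBLH fold enrichments of 1.72 each, against 1.30 and 1.34 for PtrCORONA. The other pairs of the 5 with the largest gap in favour of PtrBLH were not of low fold enrichment. They lay on chromosome 9 (6235863 to 6236186), with 8.76 for PtrBLH and 5.04 for PtrCORONA, and on chromosome 3 (12921744 to 12922233), with 8.97 and 5.37. In the 5 pairs with the largest gap in favour of PtrCORONA, the PtrBLH fold enrichment was 4.40 to 6.33 and that of PtrCORONA 10.5 to 31.0, on scales that need not be the same in both lists. On chromosome 1 the PtrBLH peak (40619197 to 40619662) had a −log10 q of 5.81 at a fold enrichment of 5.84, and the PtrCORONA peak (40619162 to 40619709) had 55.1 at 20.3. On chromosome 19 the values were 4.88 at 5.22 (PtrBLH, 2489233 to 2489516) and 36.2 at 19.6 (PtrCORONA, 2489006 to 2489531). On scaffold_207 they were 6.87 at 6.33 (PtrBLH, 53626 to 54302) and 57.8 at 25.3 (PtrCORONA, 53563 to 54410). The summits of these pairs were 5 bp apart on chromosomes 1 and 19 and 144 bp apart on scaffold_207. The remaining pairs of this kind were the chromosome 7 pair described in the next paragraph, with summits 575 bp apart, and one on chromosome 1 (PtrBLH from 21933338 to 21933790, 4.69 at 4.40, and PtrCORONA from 21933387 to 21933879, 24.9 at 10.5) with summits 70 bp apart.

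The 5 places with 2 PtrBLH peaks under 1 PtrCORONA peak included some of the widest peaks. On chromosome 15, PtrBLH peaks of 3963 bp (6320758 to 6324720) and 3097 bp (6324821 to 6327917) lay under a single PtrCORONA peak of 7170 bp, the widest of its list. Its summit, at 6322881, was 7 bp from that of the first PtrBLH peak, at 6322874. On chromosome 9, PtrBLH peaks of 691 bp and 3149 bp lay under a PtrCORONA peak of 4158 bp (987594 to 991751). On chromosome 7, the second PtrBLH peak (6128789 to 6129072) was weak, with a −log10 q of 4.88 against 42.9 for the first, and the PtrCORONA peak over both had 68.4. The other places were on chromosome 13, where PtrCORONA peaks of 2364 bp and 1624 bp spanned the pairs of PtrBLH peaks. In each place the PtrCORONA summit fell beside that of 1 of the PtrBLH peaks, 1 to 23 bp away.

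Having a partner went with rank in both lists. In the first 4 deciles of the lists by −log10 q, 408 of 409 PtrBLH peaks (99.8%) and 457 of 463 PtrCORONA peaks (98.7%) were paired, against 72.1% and 63.2% of the whole lists. In the last 3 deciles these shares were 97 of 307 (31.6%) and 86 of 348 (24.7%). The fall came in the middle of the lists, and earlier in the PtrCORONA list. In the fifth decile, 92.2% of the PtrBLH and 74.1% of the PtrCORONA peaks were paired, and in the seventh 60.6% and 35.3%. At a −log10 q of 20 or more, 486 of 495 PtrBLH peaks (98.2%) and 534 of 560 PtrCORONA peaks (95.4%) had a partner of any strength. At 10 or more the numbers were 609 of 655 (93.0%) and 617 of 735 (83.9%). Signal below the call threshold is not part of the lists, so an unpaired peak is one without a call in the other list.

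**Figure D3:**
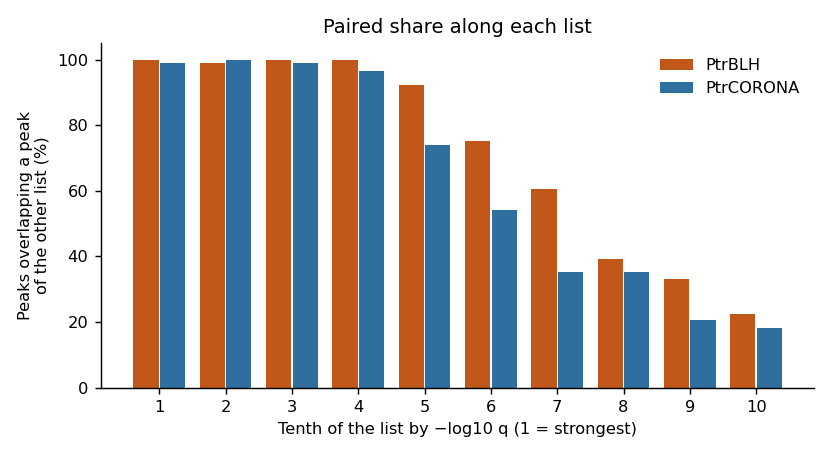
Percent of peaks that overlap a peak of the other list, in deciles of each list ordered by −log10 q from the strongest (1) to the weakest (10), for PtrBLH (left bars) and PtrCORONA (right bars). The share is 96.5% or more through the fourth decile and reaches 22.5% for PtrBLH and 18.1% for PtrCORONA in the last.

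Paired and unpaired peaks of each list differed in size as well as in rank. Paired PtrBLH peaks had a median width of 507 bp, fold enrichment of 13.9 and −log10 q of 45.9, and the unpaired ones 323 bp, 5.79 and 6.50. Paired PtrCORONA peaks had medians of 532 bp, 12.4 and 56.7, and the unpaired ones 341 bp, 6.21 and 7.28. No unpaired PtrBLH peak and 1 unpaired PtrCORONA peak was wider than 1000 bp, against 42 and 47 of the paired ones.

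The PtrBLH and PtrCORONA pairs were not private to these TFs. Not 1 of the 738 pairs lacked a peak in the 4 other lists, which are those of PtrARF5a, PtrC2H2ZF1, PtrC2H2ZF2 and PtrNAC127. Such a lack was rare in the whole lists too, at 4.20% of PtrBLH and 4.40% of PtrCORONA peaks. A PtrARF5a peak overlapped 736 of the paired PtrBLH peaks (99.7%) and 731 of the paired PtrCORONA peaks (99.7%), while 94.3% of all PtrBLH and 94.5% of all PtrCORONA peaks did so. Paired peaks of both TFs are largely the same places, so their shares with any other list are nearly equal by construction. With 5397 peaks, PtrARF5a has the longest list. PtrARF5a alone was met by 24.1% of the paired PtrBLH and 24.3% of the paired PtrCORONA peaks, against 39.5% and 39.2% of the whole lists. For 178 pairs PtrARF5a was the only other list. These pairs were weaker, with median −log10 q values of 9.13 (PtrBLH) and 8.86 (PtrCORONA), and their summits were a median of 41.5 bp apart. The 520 pairs with a peak in every other list had medians of 83.8 and 91.0, with summits 7 bp apart. All 4 other lists were met by 70.3% of the paired PtrBLH and 70.4% of the paired PtrCORONA peaks. In the whole lists these shares were 50.7% and 45.9%. Outside the regions of all lists, the pair with the best mean rank lay on chromosome 8 (PtrBLH from 6268824 to 6269284, −log10 q 38.4, and PtrCORONA from 6268804 to 6269319, 46.0). The next was on chromosome 16 (1675765 to 1676275, 51.5, and 1675727 to 1676243, 36.4). Only 2 pairs had no PtrARF5a peak, the chromosome 11 pair described above and one on chromosome 13 (PtrBLH from 14752327 to 14753904, PtrCORONA from 14753270 to 14753686), both of low fold enrichment. These pairs outside the common regions were chosen after their values were seen.

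Unpaired peaks were seldom near misses. For the 281 unpaired PtrBLH peaks with a PtrCORONA peak on the same chromosome or scaffold, the gap between closest edges had a median of 89211 bp (70189 to 116527 bp). For the 417 such PtrCORONA peaks the median gap to a PtrBLH peak was 110558 bp (91767 to 144919 bp). Neighbouring peaks within a list stood a median of 226591 bp (PtrBLH) and 206472 bp (PtrCORONA) apart. That is the gap from each peak to the next one along the sequence. The gap to the other list is to the closer peak on either side and is shorter by construction, so the values are not like for like. A gap of 1 kb or less was found for 5 unpaired PtrBLH peaks (1.75%) and 4 unpaired PtrCORONA peaks (0.939%), and a gap over 100 kb for 133 (46.7%) and 220 (51.6%). The nearest peak of the other list was itself a paired one in 64.8% of the PtrBLH cases and 73.6% of the PtrCORONA cases. These shares are close to the 63.2% and 72.1% of paired peaks in the lists searched.

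**Figure D4:**
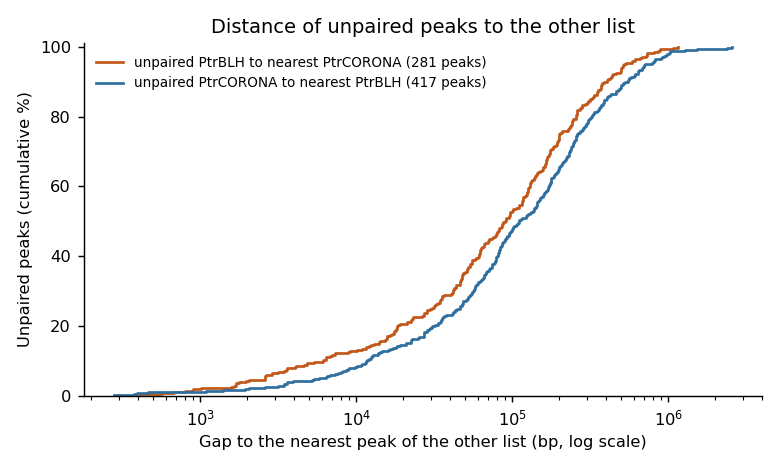
Cumulative percent of the unpaired peaks against the gap in bp to the nearest peak of the other list on a log scale, for 281 PtrBLH peaks and 417 PtrCORONA peaks. Few gaps are under 1 kb, and the medians are 89211 bp for PtrBLH and 110558 bp for PtrCORONA.

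The nearest and the farthest unpaired peaks mostly lay in the lower part of their lists, as unpaired peaks did in general. The median percent rank of all unpaired peaks was 80.8 for PtrBLH and 76.5 for PtrCORONA. On chromosome 8, a PtrBLH peak (11228275 to 11228558, −log10 q 4.05) and a PtrCORONA peak (11227579 to 11227879, 6.60) lay 395 bp apart, each without a partner. The smallest gap, 281 bp, belonged to a PtrCORONA peak on chromosome 10 (22175856 to 22176364) with a −log10 q of 18.7. The farthest PtrBLH peak, on chromosome 1 from 117726 to 118038 (−log10 q 5.78), was 1160461 bp from the nearest PtrCORONA peak. The farthest PtrCORONA peaks, also on chromosome 1, ran from 46868026 to 46868323 (−log10 q 11.7) and from 47038576 to 47038863 (3.96), and were 2550949 bp and 2380409 bp from any PtrBLH peak. On 4 scaffolds a PtrBLH peak, and on 9 a PtrCORONA peak, had no peak of the other list on the same sequence.

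The strongest unpaired peak of each TF stood beside others of its own list. On chromosome 10, the PtrBLH peak at 19015276 to 19015842 reached a −log10 q of 128.9 at 49.8-fold enrichment and was the only unpaired peak in the first 4 deciles of the list. A second PtrBLH peak lay next to it, from 19016040 to 19016641 (24.6 at 13.1-fold). No PtrCORONA peak was within 20 kb, and the nearest was 96208 bp from the first. On chromosome 3, 6 unpaired PtrCORONA peaks filled 7722 bp from 7359737 to 7367458, with fold enrichments of 6.58 to 48.1, and the nearest PtrBLH peak was 230198 bp from them. None of these 8 peaks overlapped a peak of another list. The IDs under which the genes were cloned name chromosome 10 for PtrBLH and chromosome 3 for PtrCORONA. A second ID, which names another chromosome, is also in use for PtrCORONA in the same study. Whether these peaks lie at the genes themselves was not tested, and since the introduced plasmids carry the coding sequences, plasmid DNA and chromosomal DNA there cannot be told apart. The fourth PtrCORONA peak by −log10 q without a partner was of another kind. This chromosome 8 peak (9652676 to 9653197, −log10 q 54.5 at 22.9-fold) had a peak in all 4 other lists but none of PtrBLH within 130174 bp. The fifth, on chromosome 11 from 7839341 to 7839862 (37.4 at 19.1-fold), likewise had a peak in every list except that of PtrBLH.

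After the chromosome 10 peak, the strongest unpaired PtrBLH peaks combined a high −log10 q with a low fold enrichment. They lay on chromosome 13 (14872695 to 14872979, −log10 q 28.4, fold enrichment 2.65), on chromosome 11 (7194134 to 7194667, 28.1 and 2.27, and 7192262 to 7192927, 27.7 and 2.06) and on chromosome 8 (18773187 to 18773772, 27.3 and 2.07). A fold enrichment under 3 was found for 46 PtrBLH peaks and 16 PtrCORONA peaks. Of these, 14 PtrBLH peaks (30.4%) and 13 PtrCORONA peaks (81.2%) were paired, against 72.1% and 63.2% of all peaks. The 32 unpaired PtrBLH peaks of this kind were the closer ones to PtrCORONA peaks, since the 30 with a measured gap had a median of 6746 bp, against 97088 bp for the 251 with a higher fold enrichment. They also clustered, with 20 on chromosomes 11 and 13, against 18 of the 253 unpaired PtrBLH peaks of higher fold enrichment. These chromosomes held 50 and 58 of all 1023 PtrBLH peaks. Runs of at least 3 unpaired peaks with gaps of 10 kb or less were found 3 times for PtrBLH, all with fold enrichments under 3. PtrCORONA had 1 such run, at the chromosome 3 site. The PtrBLH runs held 5 unpaired peaks on chromosome 11 (7192262 to 7196866), 5 unpaired peaks on chromosome 13 (14861662 to 14872979) and 3 more there (6400945 to 6407805). The second of these stretches also held 1 paired PtrBLH peak (14866899 to 14869685) and its PtrCORONA partner. The limit of 3 and the definition of a run were chosen after the data had been seen.

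Unpaired peaks of the homeodomain TFs differed in which other lists they met. Of the 285 unpaired PtrBLH peaks 1 (0.351%) overlapped a PtrNAC127 peak, whereas 96 of the 426 unpaired PtrCORONA peaks (22.5%) did. In the whole lists these shares were 52.8% and 54.4%. Among the paired peaks, which are largely the same places in both lists, they were 73.0% and 73.0%. Among the unpaired PtrCORONA peaks the share with PtrNAC127 was higher at higher strength, while hardly any unpaired PtrBLH peak met PtrNAC127 at any strength. At a −log10 q of 10 or more, 0 of 46 unpaired PtrBLH peaks and 64 of 118 unpaired PtrCORONA peaks (54.2%) overlapped PtrNAC127, and at 20 or more the numbers were 0 of 9 and 22 of 26 (84.6%). The share of all peaks of each list that met PtrNAC127 was not taken at these limits. Whether the rise goes beyond that of all strong PtrCORONA peaks was thus not tested. Of the PtrNAC127 list itself, 92.8% overlapped a PtrCORONA peak and 78.9% a PtrBLH peak. Whether this bears on the shares among unpaired peaks was not tested. A peak in all 4 other lists was found for no unpaired PtrBLH peak and for 16 unpaired PtrCORONA peaks, whose −log10 q ran from 7.28 to 54.5 with a median of 20.5, while such peaks made up 50.7% and 45.9% of the whole lists. Most unpaired peaks overlapped PtrARF5a and no other of the 4 lists, 226 for PtrBLH (79.3%) and 276 for PtrCORONA (64.8%), against 39.5% and 39.2% of the whole lists. No other list held a peak at 43 unpaired PtrBLH peaks (15.1%) and 51 unpaired PtrCORONA peaks (12.0%), against 4.20% and 4.40% of the whole lists, since every paired peak had one. The breakdown by PtrNAC127 and by strength was chosen after the values had been seen.

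**Figure D5:**
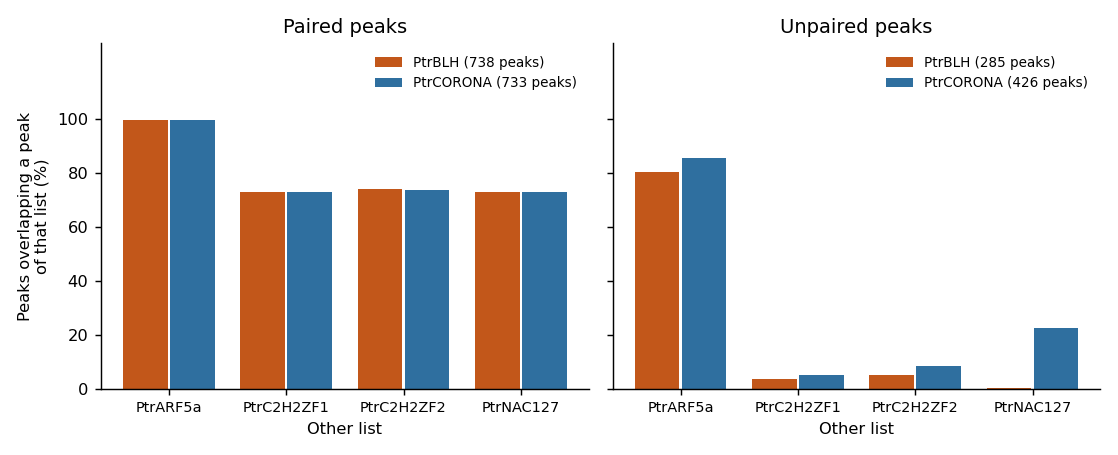
Percent of paired (left panel) and unpaired (right panel) peaks that overlap a peak of each other list, for PtrBLH (left bars) and PtrCORONA (right bars). Paired peaks of both TFs are largely the same places and have nearly the same shares by construction. Among unpaired peaks the shares with PtrNAC127 are 0.351% for PtrBLH and 22.5% for PtrCORONA.

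The zinc finger lists met unpaired PtrBLH peaks only where the fold enrichment was low. Of the 32 unpaired PtrBLH peaks with a fold enrichment under 3, 15 (46.9%) overlapped a peak of PtrC2H2ZF1 or PtrC2H2ZF2, and of the 253 others 0 did. Of these others 224 (88.5%) overlapped a PtrARF5a peak, against 5 (15.6%) of the 32. Among the unpaired PtrCORONA peaks with a fold enrichment of 3 or more, 39 of 423 (9.22%) overlapped a zinc finger peak. Over the whole lists, PtrC2H2ZF1 peaks overlapped 53.6% of the PtrBLH and 48.0% of the PtrCORONA peaks, and PtrC2H2ZF2 peaks 54.7% and 49.7%. These comparisons by fold enrichment were chosen after the values had been seen, and they compare parts of single libraries.

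Pairs were spread over all 19 chromosomes. The share of paired peaks per chromosome ran from 59.4% (chromosome 10) to 81.0% (chromosome 3) for PtrBLH and from 51.4% (chromosome 12) to 76.1% (chromosome 13) for PtrCORONA, with medians of 72.0% and 60.8%. PtrBLH had the higher share on 15 chromosomes and PtrCORONA on chromosomes 2, 7, 11 and 13. Paired counts are nearly equal in both lists by construction, so these are the chromosomes on which PtrBLH had more peaks. Chromosome 13 had more unpaired PtrBLH peaks (21 of 58, at a median gap of 15813 bp) than unpaired PtrCORONA peaks (11 of 46). Unpaired PtrCORONA peaks were the more numerous on 15 of the 19 chromosomes. Chromosome 3 was one of these, with 11 unpaired PtrBLH peaks of 58 and 32 unpaired PtrCORONA peaks of 79, among them the 6 of the run. The paired share of PtrBLH on chromosome 13 (63.8%) was not the lowest, being 59.4% on chromosome 10 and 62.7% on chromosome 8. On chromosome 1, the one with the most peaks, 85 pairs stood beside 24 unpaired PtrBLH and 45 unpaired PtrCORONA peaks. The median summit offset was 7 to 26 bp by chromosome, the largest being on chromosome 8 (32 pairs). On unplaced scaffolds 39 of 44 PtrBLH peaks (88.6%) and 39 of 50 PtrCORONA peaks (78.0%) were paired.

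Set beside the other 14 pairs of lists in the series, PtrBLH and PtrCORONA shared the smallest part of the shorter list but kept a close rank order. Of the shorter list 72.1% was paired here, against 78.9 to 97.7% elsewhere. The shorter list was that of PtrBLH here, with 1023 peaks and a median −log10 q of 17.7. In every pair with PtrC2H2ZF1, PtrC2H2ZF2 or PtrNAC127 it held 575 to 681 peaks, with medians of 58.3 to 92.1. Shares of the shorter list are thus not on equal terms. When each list was cut to its first 500 peaks by −log10 q, 93.0% of the PtrBLH peaks had a PtrCORONA partner, the third highest of the 15 pairs, against 86.8 to 98.2% elsewhere. The rank order of fold enrichment over pairs (Spearman correlation 0.826) was second to that of PtrC2H2ZF1 and PtrC2H2ZF2 (0.981), and the lowest was 0.202. The median summit offset of 10 bp lay within the 6 to 21 bp of the other pairs. These values are a description, and no difference between pairs of lists was tested.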

How the data were processed

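Peak lists of PtrBLH and PtrCORONA, 1 ChIP-seq library each, were compared, with the 4 other TF lists for context. The authors used Trimmomatic for trimming and Bowtie2 for mapping (Populus tremula × alba genome), filtered duplicates and low mapping quality in SAMtools, and called each library's peaks over input by MACS2 (2.1.0 in the submitters' processing notes). The deposited lists give a whole-number score (not used), a fold enrichment, which is a ratio to the control, and, on a −log10 scale, the q-value and p-value of each peak. Mapped reads per library are not given in the sources used here.

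Peaks sharing 1 bp were paired. Ranks were by −log10 q within a list. Medians have order-statistic 95% intervals and shares exact binomial ones. Peaks are not replicates and nothing was tested. Fold enrichments of the lists are not on one scale and were compared by rank or set side by side. The pairing code was tested on simulated lists. Named peaks are those with the best mean rank, largest rank difference, largest summit offset, smallest overlap, largest −log10 q, or smallest or largest gap, and those chosen later are marked. The lists and members were chosen with earlier results of these data known. Scripts ran under Python 3.11.15 with scipy 1.17.1, pandas 2.3.3, matplotlib 3.10.9 and numpy 2.4.6. Alternative pairing rules, thresholds and list lengths were tried.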

Additional observations from a re-analysis of the deposited data

How the results depend on the processing

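The pairing, summit, width, rank and distance results were recomputed with other pairing rules, thresholds and list lengths, and with peaks of a fold enrichment of 3 or more only, a choice made after the data had been seen. Of 67 recomputed values, 55 stayed within the interval of the reported value or, for rank order, within 0.05 of it. With a −log10 q of 10 or more in both lists, the paired share was 87.3% for PtrBLH and 77.3% for PtrCORONA, the median summit offset was 8 bp, and unpaired PtrCORONA peaks lay a median of 223657 bp from a PtrBLH peak. With 5 or more, the PtrBLH share was 76.6%. When a pair needed summits within 100 bp, the shares were 66.3% for PtrBLH and 58.5% for PtrCORONA, and the median distances 58977 bp and 86187.5 bp, since peaks that overlap with distant summits then count as unpaired at a distance of 0. With the top 1000 peaks of each list, the PtrCORONA share was 69.4% and unpaired PtrBLH peaks lay a median of 121707 bp away. Ranked by fold enrichment, the Spearman correlation over pairs was 0.826. No paired analysis was possible because each TF has 1 library. Mapped reads per library are not given in the sources used here, which limits what the weak end of either list can show.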
